A study of Mus musculus with 468 samples.

Results

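Of the 23180 genes listed in the adipose tissue counts, 10 encode steps by which the branched-chain amino acids leucine, isoleucine and valine are broken down, or proteins that switch one of those steps on and off. They were chosen by gene symbol, with earlier results of these data known: Bcat2, Bckdha, Bckdhb, Dbt, Bckdk, Ppm1k, Acadsb, Ivd, Mccc1 and Aldh6a1. All 10 passed the filter on low values (a minimum of 10 counts in 50% or more of libraries), as did 18380 genes in all. They are described by role, first in level, then in how they varied together, and then in how each varied with markers of macrophages, adipocytes and mitochondria in the same libraries.

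Breakdown of these amino acids takes place in mitochondria, and adipose tissue is one of the tissues that carries it out. The mitochondrial transaminase Bcat2 removes the amino group, and the branched-chain keto acid dehydrogenase complex then commits the carbon skeletons to oxidation. Bckdk phosphorylates and switches off that complex, Ppm1k removes the phosphate again, and separate enzymes carry the leucine, isoleucine and valine skeletons on toward acetyl-CoA, propionyl-CoA and related products.

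The libraries were made from adipose RNA of Diversity Outbred mice, a stock descended from several inbred founder strains and bred so that each animal has a genome of its own. Per the study's methods the tissue was the gonadal fat pad and the adult mice of both sexes had eaten a high-fat, high-sugar diet, labelled as 45 percent fat. Each mouse gave 1 library, all libraries form 1 group with the same diet and no treatment, and the spread between libraries therefore joins differences between animals and assay error. The labels give no sex, generation or batch, only a mouse number and a library number.

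Library totals lay between 35.3 M and 137.8 M expected counts with a median of 82 M. Adipocyte markers were present in every library: Adipoq, which encodes adiponectin, ran from 499.6 to 3818 CPM (counts scaled to equal library totals with TMM factors), and Fabp4, a fatty acid carrier, from 3818 to 15530 CPM. Genes of the Y chromosome had counts in 51.5% of the libraries and none in 48.5%. Because these clusters come from the data and not from the labels, levels in them are only described below. Tests concern relations inside each cluster and differences between those relations. The library with the lowest total, from mouse DO283, stood apart, with an adipocyte score of -2.51 beside a macrophage score of -1.87 (scores are means of z-scored log2 CPM over a list of markers). Where the 10% of libraries with the lowest totals were left out, this one included, all 10 genes kept the direction and the call of their relation to the macrophage score described below. In that fit 7662 of 18380 genes were called lower with a higher score.

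Promoter sequences are shown for 6 of the genes, because the first 2 and the 4th and 6th form the pairs that varied most alike, the 3rd was in 2 of the 3 pairs least alike, and the 5th and 6th hold the most copies of the motif in capitals. The sequences are those of RefSeq on GRCm38.p6, 250 bases before to 50 bases after the listed start, 5′ to 3′ on the gene's strand, with the letters CCAAT or their reverse complement ATTGG in capitals. In order they are chr7:25658712-25659011 (minus strand), chr7:127903823-127904122 (plus), chr6:57535438-57535737 (minus), chr7:131410351-131410650 (plus), chr2:118861744-118862043 (plus) and chr12:84450975-84451274 (minus). The RefSeq start of Bckdha lay 220 bases inside the GENCODE gene, so most of its sequence belongs to the gene itself in that annotation.
Bckdha: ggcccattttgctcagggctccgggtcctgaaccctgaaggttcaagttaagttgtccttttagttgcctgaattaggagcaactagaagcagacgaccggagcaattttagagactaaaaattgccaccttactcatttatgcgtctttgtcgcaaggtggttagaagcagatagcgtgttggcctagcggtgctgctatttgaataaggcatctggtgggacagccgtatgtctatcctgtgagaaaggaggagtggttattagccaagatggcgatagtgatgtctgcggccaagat
Bckdk: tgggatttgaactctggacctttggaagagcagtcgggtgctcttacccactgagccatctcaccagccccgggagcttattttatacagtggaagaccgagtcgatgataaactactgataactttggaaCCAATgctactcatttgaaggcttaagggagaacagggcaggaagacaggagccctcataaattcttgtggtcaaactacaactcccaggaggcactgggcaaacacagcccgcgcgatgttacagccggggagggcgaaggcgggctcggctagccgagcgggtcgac
Ppm1k: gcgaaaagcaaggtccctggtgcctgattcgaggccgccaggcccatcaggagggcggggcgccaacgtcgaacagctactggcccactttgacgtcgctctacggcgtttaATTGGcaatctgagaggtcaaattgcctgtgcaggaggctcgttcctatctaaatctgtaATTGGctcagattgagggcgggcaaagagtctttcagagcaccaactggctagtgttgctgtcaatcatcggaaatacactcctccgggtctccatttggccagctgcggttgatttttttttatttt
Acadsb: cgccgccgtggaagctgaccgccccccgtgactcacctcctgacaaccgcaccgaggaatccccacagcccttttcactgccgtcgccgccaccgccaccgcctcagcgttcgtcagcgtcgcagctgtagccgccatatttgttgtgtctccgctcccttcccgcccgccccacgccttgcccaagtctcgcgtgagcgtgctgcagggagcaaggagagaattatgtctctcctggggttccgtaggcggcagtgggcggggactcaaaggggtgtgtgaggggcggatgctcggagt
Ivd: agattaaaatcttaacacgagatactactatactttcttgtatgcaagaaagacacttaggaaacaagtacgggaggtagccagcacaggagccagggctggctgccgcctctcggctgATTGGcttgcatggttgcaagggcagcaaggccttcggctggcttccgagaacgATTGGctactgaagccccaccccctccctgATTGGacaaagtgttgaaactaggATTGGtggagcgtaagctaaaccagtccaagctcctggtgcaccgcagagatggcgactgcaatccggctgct
Aldh6a1: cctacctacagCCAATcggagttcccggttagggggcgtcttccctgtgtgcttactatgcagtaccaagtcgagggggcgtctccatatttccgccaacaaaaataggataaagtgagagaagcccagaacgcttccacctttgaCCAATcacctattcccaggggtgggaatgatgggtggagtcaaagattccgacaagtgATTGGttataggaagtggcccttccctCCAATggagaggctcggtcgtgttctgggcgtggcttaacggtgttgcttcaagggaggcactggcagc

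Of the 10 genes, 9 were matched by symbol to a promoter entry, and Dbt was not. CCAAT, searched on both strands and counted at every position, was found 4 times each in the windows of Ivd and Aldh6a1, 3 times in that of Mccc1, 2 times each in those of Bckdhb and Ppm1k, once in that of Bckdk, and not in those of Bcat2, Bckdha and Acadsb. At least 1 copy was present in 6 of 9 windows and at least 3 copies in 3 of 9, beside 37.4% and 3.4% of all 32851 promoters of the same length. The Acadsb and Aldh6a1 windows, whose genes formed the most alike pair, thus hold 0 and 4 copies. The GC box GGGCGG (reverse CCGCCC) was present in 4 of 9 windows, beside 35.7% of all promoters, with 5 copies in that of Acadsb. The letters TATAAA (reverse TTTATA) were present in 1 window, that of Bckdk, beside 13.6% of all. The nuclear receptor half-site AAGGTCA (reverse TGACCTT) was present in none of the 9, beside 4.7% of all. The E-box CACGTG and the cAMP response element TGACGTCA, each its own reverse, were also present in none, beside 7.2% and 1.8% of all. These motifs were counted independently of each other, and a match or its absence describes these letters in these windows and nothing more.

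The transaminase Bcat2 (ENSMUSG00000030826, chromosome 7, 45570153 to 45589711, plus strand) had a lowest level of 28.9, a median of 71.7 and a highest of 266.8 CPM, with a mean of 79.5 ± 34.7 (SD over all libraries). It lay below 46.9 CPM in 10% of libraries and above 119.9 CPM in another 10%, so the highest library stood far above most. The lowest value came from mouse DO200 and the highest from mouse DO408. Coordinates here and below are on GRCm38, and for all 10 genes the deposited positions were those of GENCODE M21.

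The dehydrogenase complex is built from an E1 part with the subunits Bckdha and Bckdhb and an E2 core, Dbt, that transfers the acyl group. Bckdha (chromosome 7, 25629946 to 25658981, minus strand) ran from 46.1 over a median of 126.6 to 475.7 CPM. Bckdhb (chromosome 9, 83925145 to 84124240, plus strand) ran from 38.8 over 123.2 to 236.4 CPM. Dbt (chromosome 3, 116513070 to 116549981, plus strand) ran from 18.9 over 76.3 to 205.8 CPM. The same animal, mouse DO200, had the lowest value of all 3 subunits, and the highest values came from mice DO237, DO140 and DO475. The DO200 library had the lowest adipocyte score of all libraries, -3.305, beside a macrophage score of 2.445. On the log2 scale Bckdha spread most of all 10 genes (SD 0.72), while its partner in the E1 part, Bckdhb, had an SD of 0.45.

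The kinase Bckdk (chromosome 7, 127904082 to 127910221, plus strand) had the narrowest spread of the 10 genes on the log2 scale (SD 0.40), from 32.5 over a median of 54.2 to 132.8 CPM. The phosphatase Ppm1k (chromosome 6, 57506502 to 57535468, minus strand) ran from 7.77 over 16.8 to 73.2 CPM. The highest Bckdk value came from mouse DO237, which also had the highest Bckdha value, and the highest Ppm1k value came from mouse DO349, which also had the highest Aldh6a1 value.

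Of the later enzymes, Acadsb oxidizes the acyl-CoA made from isoleucine (chromosome 7, 131410601 to 131448944, plus strand) and ran from 58.3 over a median of 157.8 CPM to a highest level 6.04 times the lowest. Ivd oxidizes isovaleryl-CoA from leucine (chromosome 2, 118861954 to 118882909, plus strand) and ran from 47.6 over 172.3 to 400.8 CPM. Mccc1 is a subunit of the carboxylase that follows Ivd (chromosome 3, 35959312 to 36000678, minus strand) and ran from 48.4 over 139.7 to 282.3 CPM. These 3 genes spanned a similar range, with the highest library 5.83 to 8.41 times the lowest. Aldh6a1 is the dehydrogenase that ends the valine branch (chromosome 12, 84430717 to 84451004, minus strand) and ran from 130.1 over 472.8 to 1360 CPM. Mouse DO200 was again the lowest for Ivd and Mccc1, mouse DO398 for Acadsb and mouse DO088 for Aldh6a1. The adipocyte and macrophage scores were -2.337 and 2.273 for DO398, and -3.102 and 3.039 for DO088.

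**Figure D1:**
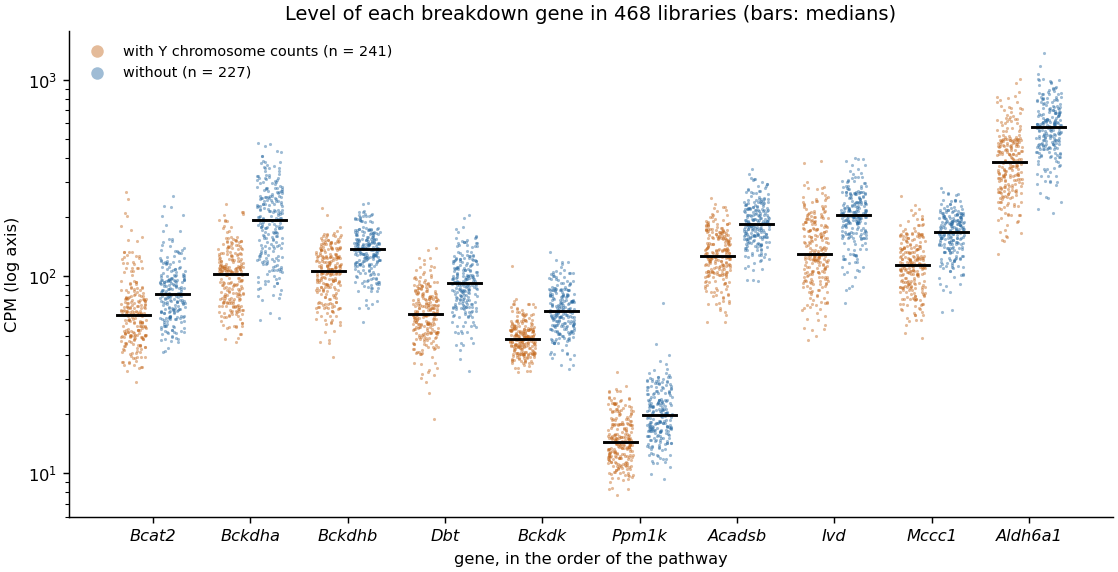
Level of each gene in CPM (log axis) in every library, with libraries that have Y chromosome counts in orange and those without in blue. Black bars are medians, and for all 10 genes the median without Y chromosome counts is the higher one while the clouds overlap.

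All 10 genes had the lower median in the libraries with Y chromosome counts, given here as a description without a test. The share of all genes with a lower median there was not computed. The medians with and without were 64.25 and 91.96 CPM for Dbt, 48.3 and 66.6 for Bckdk, and 63.96 and 81.3 for Bcat2. The ranges of the clusters overlapped for every gene, and for Bckdha they ran from 46.1 to 232.5 CPM with and from 59.8 to 475.7 CPM without Y chromosome counts. The 10 genes varied more than most of the 9508 genes that averaged 10 CPM or more, which were not matched to them in abundance. The median SD of log2 CPM was 0.51 over the 10 and 0.27 over the 9508.

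Divided by the length of the joined exons, mean levels ran from 85.3 CPM per kb for Aldh6a1 and 80.8 for Bckdha through 68.1 for Bckdhb, 32.1 for Ivd, 24.2 for Dbt, 22.5 for Acadsb, 20.4 for Bcat2, 16.0 for Bckdk and 13.1 for Mccc1 to 2.98 for Ppm1k. Only 2 steps in this order were wider than the spread between libraries in nearly all of them. Bckdhb lay above Ivd in every library and Mccc1 above Ppm1k in all but 1. Other neighbours changed places: Bckdha lay above Bckdhb in 56.4% of libraries, a difference of 0.12 ± 0.46 (mean log2 difference of the per-kb levels, SD over libraries), and Dbt above Acadsb in 66.2%. The kinase lay above the phosphatase per kb in every library, by 2.44 ± 0.37 on the log2 scale, with a lowest difference of 0.51.

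Every pair of the 10 genes was positively correlated across libraries. Over the 45 pairs, Pearson's r of log2 CPM ran from 0.637 to 0.937 with a median of 0.811 (rho from 0.668 to 0.941), each with a two-sided permutation p of 1e-05, the smallest that 100000 resamples can give. Acadsb and Aldh6a1 came first (r = 0.937, rho = 0.930), followed by Bckdha with Bckdk (r = 0.933, rho = 0.935) and Dbt with Aldh6a1 (r = 0.925, rho = 0.941). So the gene for the subunit and that for the kinase that inactivates it rose and fell together. The 3 lowest values were those of Bcat2 with Bckdk (0.637), Bckdhb with Ppm1k (0.650) and Bckdk with Ppm1k (0.651). Kinase and phosphatase were thus among the pairs least alike, and Bckdha and Bckdhb, which form 1 protein assembly, had r = 0.792. Without the 2 libraries farthest from the median the 45 values ran from 0.637 to 0.934, and inside the libraries with and without Y chromosome counts the medians were 0.799 and 0.735. Over all libraries the median pair r was 0.646 among the adipocyte markers used below and 0.814 among the macrophage markers. It was 0.973 among the oxidative phosphorylation genes, and pairs of all genes were not computed.

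**Figure D2:**
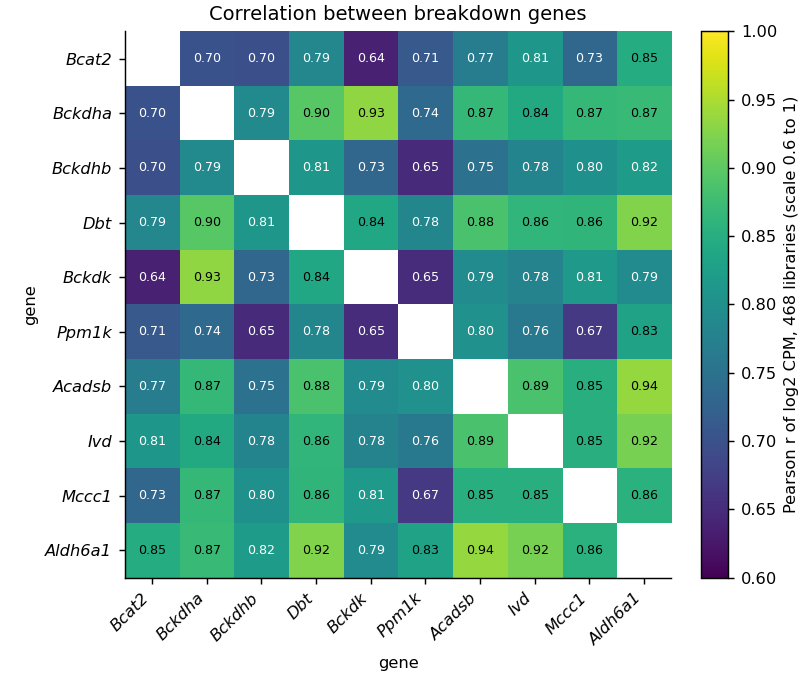
Pearson's r of log2 CPM over all libraries for each pair of the 10 genes, with the color scale running from 0.6 to 1. The brightest cells are Acadsb with Aldh6a1 (0.94) and Bckdha with Bckdk (0.93), and the darkest is Bcat2 with Bckdk (0.64).

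Held at equal values of other measures the pairs separated further, given here as a description. With the oxidative phosphorylation score held fixed, partial r was 0.844 for Acadsb with Aldh6a1 but 0.452 for Bckdha with Bckdk. With the macrophage, adipocyte and oxidative phosphorylation scores, Xist and the Y chromosome genes held fixed together, 44 of 45 pairs were still positive and the median was 0.326. The exception was Bckdhb with Bckdk (-0.048), while Acadsb with Aldh6a1 had 0.701, Bcat2 with Aldh6a1 had 0.666 and Ppm1k with Aldh6a1 had 0.648. All these values come from the same libraries, so that depth and tissue make-up are shared by every gene.

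The genes outside the 10 whose levels were most like each of them were named by the 2 highest r among the 9498 other genes that averaged 10 CPM or more, over all libraries. Bckdha was most like Echs1, the hydratase that acts in fatty acid and branched-chain oxidation (r = 0.970), and Sdha, a subunit of complex II (r = 0.961). Bckdk was also most like Echs1 (r = 0.929), then the complex I subunit Ndufa9 (r = 0.927). Dbt, Acadsb and Bckdhb were each most like Hibadh, an enzyme of the valine branch (r = 0.914, 0.911 and 0.843). Their second genes were Cluh, a regulator of mRNAs for mitochondrial proteins, for Dbt (0.912) and Bckdhb (0.843), and Maob, a monoamine oxidase, for Acadsb (0.893). Aldh6a1 was most like Aldh2, mitochondrial aldehyde dehydrogenase (0.931), then Hibadh (0.926).

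Ivd also had Aldh2 first (0.885), followed by Trap1, a mitochondrial chaperone (0.874). Mccc1 had Trap1 first (0.913), followed by Mmut, methylmalonyl-CoA mutase of the propionate branch (0.888). Bcat2 had Hsd17b10, the dehydrogenase of the isoleucine branch (0.821), then Aldh2 (0.816). Ppm1k differed from the other 9 in that neither of its first 2 genes encodes a mitochondrial enzyme: they were the translation initiation factor Eif4a2 (0.837) and the branched-chain amino acid transporter Slc43a1 (0.830). Inside the libraries with and without Y chromosome counts these r were 0.809 and 0.776 for Eif4a2 and 0.818 and 0.761 for Slc43a1.

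The relation of the whole set to macrophage markers was then resolved by gene. The macrophage score averaged 20 genes, among them Adgre1, which encodes F4/80 and ran from 10.7 over a median of 47.5 to 656.5 CPM, and none of the 20 is among the 10 breakdown genes. All 10 genes fell as the score rose, and 7819 of 18380 genes (42.5%) did so by the same test, edgeR's quasi-likelihood test with Benjamini-Hochberg adjustment over all genes. The median slope of the 10 was -0.39 log2 units per SD of the score, beside a median of -0.01 over all genes. Since the tissue was sequenced in bulk, fewer adipocytes and less of these RNAs per adipocyte cannot be told apart.

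Bckdha had the steepest slope over all libraries, -0.60 ± 0.019 log2 units per SD (SE, edgeR adjusted p = 1.94e-113), which is 0.660 of the level for each SD. Aldh6a1 followed with -0.50 ± 0.016 (adjusted p = 5.19e-118) and Ivd with -0.48 ± 0.017 (1.54e-98). The E2 core Dbt had -0.42 ± 0.014, Acadsb -0.40 ± 0.012, Mccc1 -0.38 ± 0.015 and the transaminase Bcat2 -0.37 ± 0.020. Phosphatase and kinase were close to each other, -0.33 ± 0.016 for Ppm1k and -0.32 ± 0.011 for Bckdk. Bckdhb had the shallowest slope, -0.31 ± 0.015 (adjusted p = 9.51e-68).

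By Pearson's r, tightness over all libraries ordered the genes differently from steepness. Against the macrophage score, Pearson's r was -0.841 for Acadsb (rho = -0.819), with this score the lowest value of all 18380 genes, and -0.832 for Aldh6a1 (rho = -0.817), the 3rd lowest. It was -0.810 for Bckdha, -0.805 for Dbt, -0.798 for Ivd, -0.782 for Bckdk and -0.769 for Mccc1. By rho Bckdha came first of the 10 (-0.825), and the lowest rho of all genes was -0.846. The values furthest from -1 were those of Bckdhb (-0.695), Ppm1k (-0.694) and Bcat2 (-0.650, rho = -0.667), and the median over the 10 was -0.790 beside -0.009 over all genes. Each r and rho had a permutation p of 1e-05 (adjusted p = 1.68e-05 for r over 18380 genes, 6 measures computed), the smallest that the resamples can give. Without the 2 farthest libraries r was -0.835 for Acadsb and -0.641 for Bcat2. Over 5 blocks of consecutive library numbers and 5 of mouse numbers, r stayed between -0.873 and -0.805 for Acadsb, between -0.870 and -0.769 for Aldh6a1, and between -0.698 and -0.605 for Bcat2. In the libraries with Y chromosome counts r was -0.8245 for Acadsb, -0.812 for Aldh6a1 and -0.763 for Bckdha. In those without it was -0.720, -0.723 and -0.788, and Bckdha was both the steepest and the tightest of the 10 there.

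**Figure D3:**
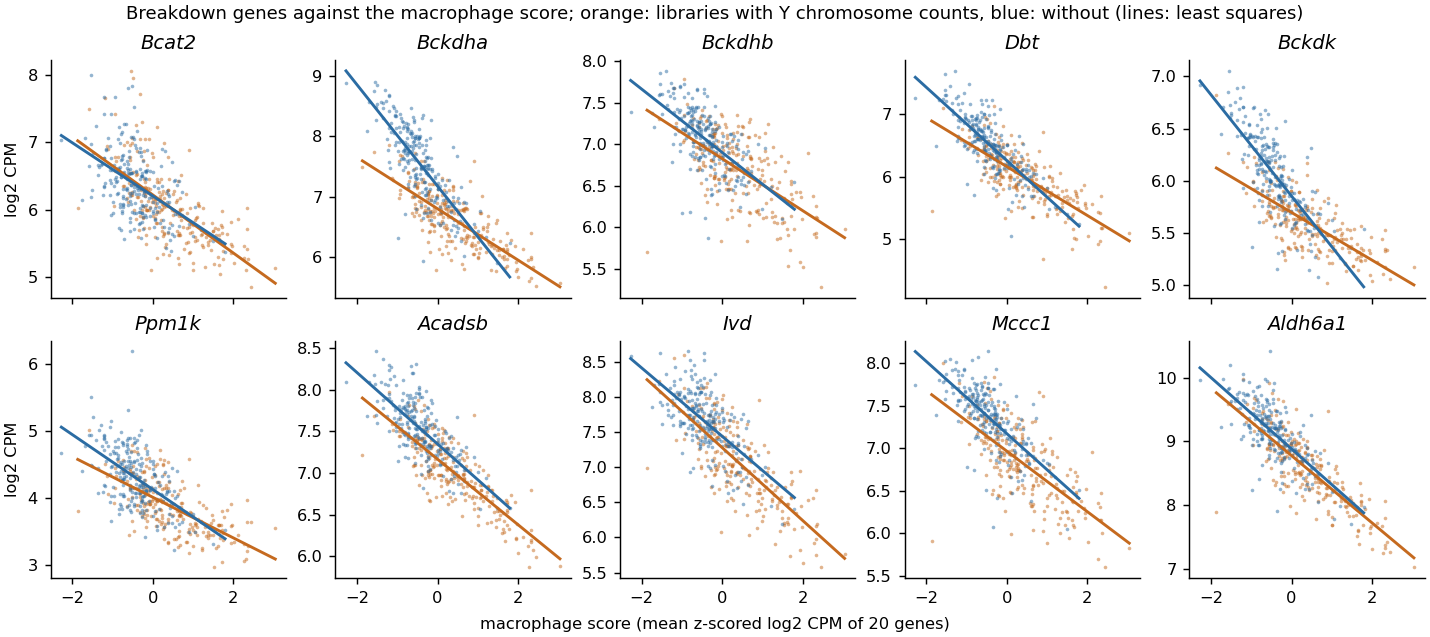
Log2 CPM of each gene against the macrophage score, 1 point per library (orange with, blue without Y chromosome counts) and a least-squares line for each cluster. The lines all slope down, and for Bckdha and Bckdk the blue line is visibly steeper than the orange one.

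The macrophage score was itself correlated with the adipocyte score (r = -0.712) and the oxidative phosphorylation score (r = -0.733). With both added to the edgeR model, 9 of 10 genes were still lower with a higher macrophage score, as were 42.1% of all genes. The slopes then ran from -0.23 ± 0.025 for Ppm1k, -0.22 ± 0.020 for Aldh6a1, -0.20 ± 0.016 for Acadsb and -0.19 ± 0.022 for Ivd to -0.059 ± 0.017 for Mccc1. Bckdhb lost its relation, with a slope of 0.0043 ± 0.017 (edgeR adjusted p = 0.834) and a partial r of 0.0036, and Bckdha went from the steepest slope to -0.14 ± 0.014. With the adipocyte score alone as covariate all 10 stayed lower, beside 46.4% of all genes, and with the oxidative phosphorylation score alone all 10 again, beside 43.3%. All 10 were also lower with the thermogenic score alone (44.8% of all genes) and with Xist and Y chromosome expression as covariates (43.5%).

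The summed level of 8 skeletal muscle markers ran from 3.44 to 6028 CPM and had r between -0.129 (Bckdhb) and -0.043 (Ppm1k) with the 10 genes (log2 scales). That of 7 liver markers ran from 3.86 to 6282 CPM and had r between 0.094 (Bckdk) and 0.163 (Bckdhb). The defining liver gene Alb had counts in every library, and the muscle gene Myh4 was at 0 in 90. The share of counts taken by 1 ribosomal RNA gene, a sign of RNA or library quality, ran from 0.269% to 28.45% and had r between -0.275 (Aldh6a1) and -0.147 (Bckdk) with the 10 genes and 0.183 with the macrophage score. The part of that share in the results was not tested. In the libraries left after the top 10% of each sum were removed, all 10 genes were still lower with a higher macrophage score. So were 7596 of all 18380 genes.

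Inside the clusters all 10 genes again fell with the macrophage score, where 43.3% of all genes did so in the libraries with and 34.7% in those without Y chromosome counts. The slopes, per SD of the score over all libraries, differed between the clusters for 4 genes, all shallower in the libraries with Y chromosome counts. Of all genes, 25.4% differed in that direction and 10387 of 18380 in either direction. Bckdha had -0.37 ± 0.020 with and -0.72 ± 0.037 without Y chromosome counts, a difference of 0.35 ± 0.040 (edgeR interaction, adjusted p = 4.96e-16). Bckdk had -0.20 ± 0.012 and -0.41 ± 0.023, a difference of 0.21 ± 0.025 (9.40e-16). Dbt had -0.34 ± 0.019 and -0.51 ± 0.028, a difference of 0.17 ± 0.034 (3.71e-06), and Ppm1k had -0.27 ± 0.020 and -0.36 ± 0.036, a difference of 0.099 ± 0.039 (0.0222). The other 6 missed the threshold, from a difference of -0.040 ± 0.041 for Ivd to 0.060 ± 0.036 for Bckdhb. The 95% intervals of Bckdhb and Mccc1 (0.048 ± 0.034) reach differences as large as that of Ppm1k. The order of the slopes changed as well. With Y chromosome counts Aldh6a1 (-0.47 ± 0.021), Ivd (-0.45 ± 0.024) and Bcat2 (-0.40 ± 0.027) were steeper than Bckdha, and Bckdk was the shallowest. Without them Bckdha was the steepest and Bckdhb (-0.33 ± 0.026) the shallowest.

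Differences in relation to the macrophage score within the complex, and between kinase and phosphatase, were tested on log2 ratios in each library. There were 3 contrasts in all. The ratio of Bckdhb to Bckdha rose with the macrophage score, by 0.28 log2 units per SD (r = 0.602, rho = 0.636, permutation p = 1e-05, adjusted over the 3 contrasts 1.5e-05), since Bckdha fell more. The ratio of Dbt to Bckdha rose by 0.17 per SD (r = 0.483, rho = 0.525, permutation p = 1e-05). Only 1.40% of all genes had a lower slope on the score than Bckdha, and ratios of genes outside the complex to Bckdha were not tested. The ratio of the phosphatase to the kinase showed no relation over all libraries (r = -0.021, permutation p = 0.649). Inside the clusters it did not behave alike: r was -0.197 (permutation p = 0.0021) with and 0.1105 (permutation p = 0.0971) without Y chromosome counts. Its rho was -0.258 (permutation p = 3e-05) with and 0.149 (permutation p = 0.0260) without, the latter past the threshold in the opposite direction, and the difference between these was not tested. For Bckdhb over Bckdha both clusters had positive r (0.295 and 0.654), and for Dbt over Bckdha r was 0.1195 (permutation p = 0.0640) with and 0.488 without Y chromosome counts.

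Mitochondrial respiration genes followed some steps far more closely than others. With the oxidative phosphorylation score, a mean over 20 subunit genes, all 10 genes were positively correlated, as were 38.3% of all genes by the permutation test. Bckdha had r = 0.951 (rho = 0.949) and Bckdk r = 0.926 (rho = 0.925), followed by Dbt (0.839) and Mccc1 (0.826). The lowest values were those of Bcat2 (0.582) and Ppm1k (0.637), which open the pathway and dephosphorylate the complex. Inside the libraries with and without Y chromosome counts r was 0.875 and 0.955 for Bckdha, 0.808 and 0.937 for Bckdk, 0.802 and 0.441 for Bcat2, and 0.537 and 0.517 for Ppm1k.

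The adipocyte score, a mean over 12 genes, was positively correlated with all 10 genes, as with 37.1% of all genes. Aldh6a1 (r = 0.811), Bckdhb (0.80), Mccc1 (0.789) and Ivd (0.783) came first, and Bckdk (0.633) and Ppm1k (0.565) last, so that Bckdhb, shallow against the macrophage score, stood near the top here. For Ppm1k r was 0.661 with and 0.250 without Y chromosome counts. Pparg, the main transcription factor of adipocytes, was positively correlated with all 10, as with 33.5% of all genes, from 0.355 for Ppm1k to 0.611 for Bckdha. Inside the clusters these values were lower, with a median over the 10 genes of 0.247 with and 0.477 without Y chromosome counts beside 0.536 over all libraries.

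Lep, which encodes the adipocyte hormone leptin, went the other way. All 10 genes were negatively correlated with it, as were 40.1% of all genes. By Pearson's r Ppm1k had the lowest value (r = -0.795, rho = -0.805), below Aldh6a1 (-0.764), Bckdha (-0.748) and Acadsb (-0.740). Bckdhb (-0.591) and Mccc1 (-0.611) had the highest r, and by rho Aldh6a1 was the lowest (-0.825). Of all 18380 genes only 0.180% had a lower r with Lep than Ppm1k did. Inside the clusters r of Ppm1k with Lep was -0.678 with and -0.788 without Y chromosome counts. In the libraries with them Bcat2 (-0.7325), Bckdha (-0.692) and Aldh6a1 (-0.679) had a lower r than Ppm1k. Over all libraries, each r and rho with the oxidative phosphorylation score, the adipocyte score, Pparg and Lep had a permutation p of 1e-05, the smallest the resamples can give. The values inside the clusters are descriptions without a test.

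**Figure D4:**
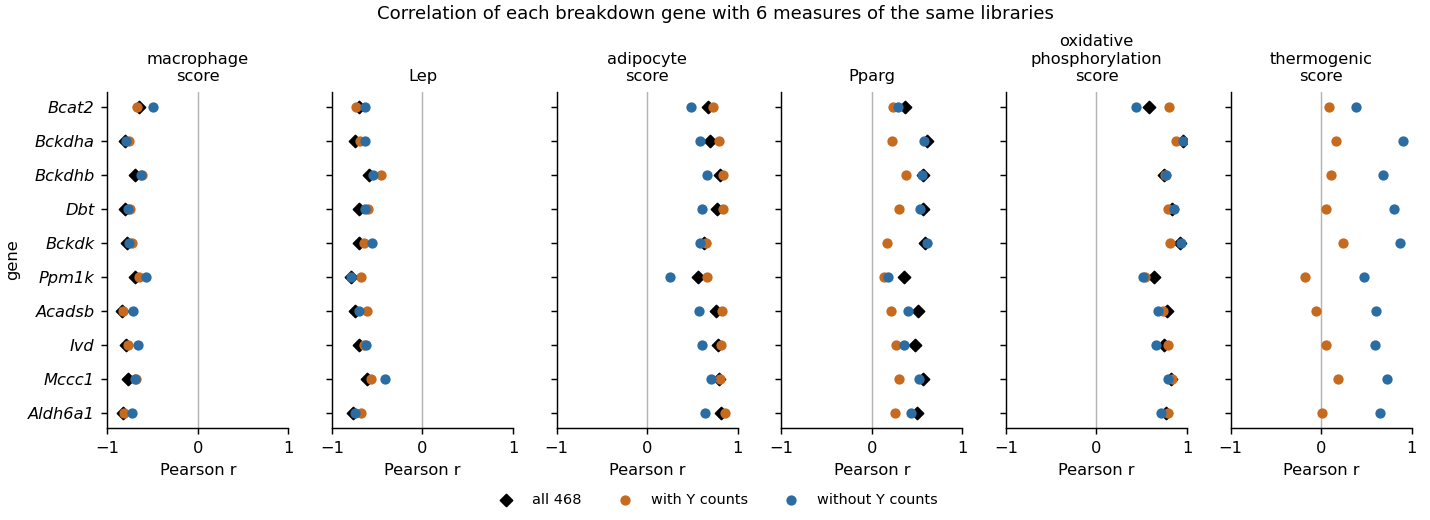
Pearson's r of each gene (rows) with 6 measures (panels), over all libraries (black diamonds, not drawn for the thermogenic score) and inside the libraries with (orange) and without (blue) Y chromosome counts. Macrophage score and Lep lie to the left of 0 for all 10 genes, and in the thermogenic panel the orange points lie near 0 (-0.178 to 0.239) while the blue ones lie between 0.388 and 0.904.

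Thermogenic genes, those of heat-producing brown and beige adipocytes such as Ucp1 (0.0573 to 4514 CPM), spanned different ranges in the clusters, and so values are given inside each cluster and not pooled. The score, a mean over 9 genes, ran from -1.56 to 0.30 in the libraries with Y chromosome counts (SD 0.327) and from -1.37 to 2.38 in those without (SD 0.836). In the libraries without Y chromosome counts all 10 genes rose with it, as did 31.7% of all genes, from 0.21 ± 0.029 log2 units per SD for Ppm1k to 0.36 ± 0.014 for Bckdk, 0.39 ± 0.020 for Dbt and 0.61 ± 0.020 for Bckdha (edgeR adjusted p = 5.75e-82 for Bckdha). In the libraries with Y chromosome counts 3 genes rose, beside 12.5% of all genes: Mccc1 (0.27 ± 0.076), Bckdha (0.27 ± 0.081) and Bckdk (0.19 ± 0.047). Ppm1k had -0.17 ± 0.070 there (edgeR adjusted p = 0.0539).

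The slope on the thermogenic score was lower in the libraries with Y chromosome counts for 6 genes, in an interaction model added after the values were seen. Of all genes, 18.4% differed that way and 6275 of 18380 in either direction. The difference was -0.38 ± 0.076 for Ppm1k (edgeR adjusted p = 1.40e-05), -0.34 ± 0.072 for Bckdha (4.05e-05), -0.28 ± 0.069 for Dbt (6.33e-04) and -0.25 ± 0.067 for Acadsb (0.00173). It was -0.22 ± 0.088 for Aldh6a1 (0.0432) and -0.17 ± 0.045 for Bckdk (0.00132). Bcat2 (0.031 ± 0.099), Mccc1 (-0.0043 ± 0.068), Ivd (-0.093 ± 0.090) and Bckdhb (-0.10 ± 0.067) missed the threshold. The 95% intervals of Ivd and Bckdhb reach differences as large as that of Aldh6a1. The score varied less in the libraries with Y chromosome counts, and slopes there had the larger errors.

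**Figure D5:**
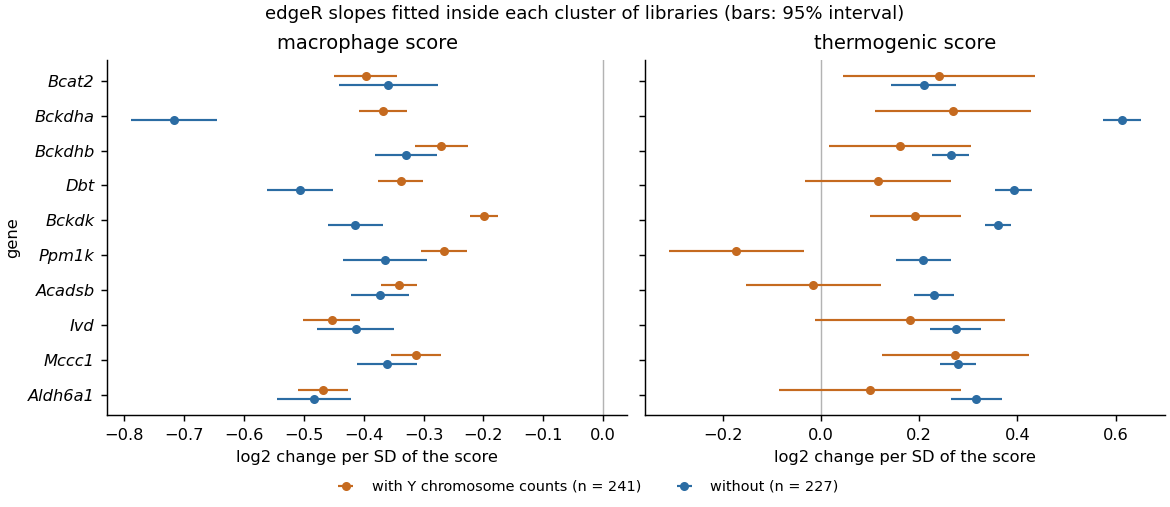
Slope of each gene in log2 units per SD of the macrophage score (left) and the thermogenic score (right), fitted inside the libraries with (orange) and without (blue) Y chromosome counts, with 95% intervals. Bckdha stands furthest from the other genes in blue in both panels (-0.72 and 0.61), and Ppm1k is at -0.17 in orange on the right.

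The wider pathway was read from 24 further genes that transport these amino acids, act in the same steps or lie downstream. With the macrophage score 20 were lower, 2 were higher and 2 missed the threshold by the same edgeR test, beside 42.5% of all genes lower and 36.1% higher, and their median slope was -0.37. The lowest r were those of Hibadh (-0.814) and Acad8 (-0.812), both of the valine branch, and Mmut (-0.810), which feeds the citric acid cycle. Dld, the E3 subunit that completes the dehydrogenase complex, had a slope of -0.44 ± 0.020, and Mccc2, the partner of Mccc1, one of -0.33 ± 0.012. Slc25a44, the mitochondrial carrier for branched-chain amino acids, had -0.34 ± 0.016, and Klf15, a transcription factor known to act on this pathway, had -0.50 ± 0.024. With and without Y chromosome counts the slopes were -0.13 and -0.64 for Dld and -0.12 and -0.46 for Slc25a44. Those of Klf15 were -0.48 and -0.29, and those of Mccc2 were -0.310 and -0.307. Adding the adipocyte and oxidative phosphorylation scores to the edgeR model left 14 of the 24 genes lower and 7 higher. The median slope of the 24 was then -0.07, and of all 18380 genes 7743 were lower and 5105 higher. The oxidative phosphorylation score alone left 15 lower and 5 higher, beside 7967 and 5123 of all genes. The adipocyte score alone left 22 lower and 2 higher, beside 8526 and 5661.

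The cytosolic transaminase Bcat1 ran against the others. It ran from 0.699 over a median of 12.1 to 69.6 CPM and rose with the macrophage score by 0.53 ± 0.040 log2 units per SD (edgeR adjusted p = 1.85e-33), with r = 0.583. Mitochondrial Bcat2, which carries out the same reaction, fell, so the transaminase genes moved in opposite directions over the same animals, in each cluster as well (r of Bcat1 0.403 with and 0.442 without Y chromosome counts). Abat, which acts on a valine product, rose by 0.14 ± 0.038, but its r was -0.40 with and 0.533 without Y chromosome counts. The plasma membrane transporter Slc7a5 had r = 0.396 on the log2 scale but an edgeR slope of -0.04 ± 0.056 (adjusted p = 0.526), and its highest library had 497.1 CPM against a median of 5.35.

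The labels give an order of mice and an order of libraries. With the mouse number 8 of the 10 genes fell, as did 12.0% of all genes, from -0.036 ± 0.014 log2 units per 100 mice for Acadsb (edgeR adjusted p = 0.0431) to -0.061 ± 0.017 for Aldh6a1 (0.00581). Bckdha (-0.053 ± 0.022, adjusted p = 0.0680) and Bckdk (-0.019 ± 0.012, 0.264) missed the threshold. With Xist and Y chromosome expression as covariates 0 of the 10 were called, beside 2291 of all 18380 genes in either direction. With the library number 0 of the 10 genes were called by edgeR and 0 by limma, beside 0.267% and 0 of all genes. At an unadjusted p under 0.05 either method again had 0 of the 10, beside 9.09% of all genes by edgeR and 5.54% by limma. The edgeR slopes ran from -0.046 to -0.016 per 100 libraries.

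Some of these genes share bases with a gene on the other strand, and whether counting used strand is not given in the sources used here. B3gnt8 shares 1171 exonic bases with Bckdha, but it had a mean of only 4.10 CPM and r = 0.013 with Bckdha (-0.187 with and -0.204 without Y chromosome counts). Bbof1 shares 1078 exonic bases with Aldh6a1 and had a mean of 3.03 CPM with r = 0.735, so its own level may hold Aldh6a1 reads or the reverse, which was not tested. The antisense gene Mccc1os shares 198 bases with Mccc1 and had 1.22 CPM. Bckdk and Ivd overlap no annotated gene.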

How the data were processed

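One adipose RNA library per mouse was analysed, all as 1 group. Per the study's methods, the authors aligned both ends of each read pair as single reads to the pooled founder transcriptomes, estimated abundance by expectation maximization with EMASE run by GBRS, and removed transcripts with few reads. The versions of EMASE and GBRS, and whether counting used strand, are details not given in the sources used here, and the submitters' processing notes name GRCm38 and DESeq2. The deposited counts are expected counts, 1 value per gene and mouse, of which 66.8% were whole numbers. A second table the authors deposited holds the same genes after a variance stabilizing transformation, on a log2 scale (5.31 to 25.3), and served as an alternative. No sample column was left unused, and no libraries shared the values of all 10 genes.

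Expected counts were rounded for the count models. CPM used TMM factors (0.578 to 1.36) and log2 CPM a prior count of 2. Slopes came from edgeR 4.0.16 (quasi-likelihood, adjusted p under 0.05 over 18380 genes), with limma 3.58.1 and DESeq2 1.42.0 as alternatives in R 4.3.3. Permutation tests were two-sided with 100000 resamples (Python, numpy). Shared reads of near-identical or overlapping genes are divided by estimation, which makes such counts uncertain. Tested on counts simulated for the macrophage fit over 18380 genes, slopes of 0.4 were recovered in 100 of 100 genes and slopes of 0.2 in 83 of 100. The named genes were all 10 members, 5 fixed and 6 extreme genes of the wider list, 2 nearest genes for each member and the 3 highest and 3 lowest pairs. Of the wider list, 1 gene is counted but not reported here by name. The members and all lists were chosen with earlier results of these data known. Total counts (35.3 M to 137.8 M) set the precision, and for the least abundant of the 10 genes the lowest level was 7.77 CPM. Each library came from a separate mouse, and the labels name no litter or cage, so p-values measure the spread between animals as sampled.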

Additional observations from a re-analysis of the deposited data

Results flagged for a closer look

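Libraries with and without Y chromosome counts differed in the slopes of 4 genes on the macrophage score, by edgeR's test of the difference itself. The difference, with minus without, was 0.35 log2 units per SD for Bckdha, 0.21 for Bckdk, 0.17 for Dbt and 0.099 for Ppm1k. Of all genes 25.4% differed in that direction and 10387 of 18380 in either direction. A difference between the clusters was thus no more common among the 10 genes than among all genes. Across 4 alternatives each of these 4 differences stayed past the threshold.

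On the thermogenic score 6 genes differed in slope by the same kind of test, all lower in the libraries with Y chromosome counts. So did 18.4% of all genes, and 6275 of 18380 differed in either direction. The difference was -0.38 for Ppm1k, -0.34 for Bckdha, -0.28 for Dbt, -0.25 for Acadsb, -0.22 for Aldh6a1 and -0.17 for Bckdk. The thermogenic score went up to 2.38 where Y chromosome counts were absent and to 0.30 where they were present, and the part that this difference in range plays was not tested.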

How the results depend on the processing

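The count of 10 genes lower with a higher macrophage score was 10 under 13 of 14 alternatives (RLE size factors, no filter, limma, DESeq2, covariates, fewer libraries, Adgre1 in place of the score) and 9 with the adipocyte and oxidative phosphorylation covariates together, where the slope of Bckdhb was 0.0043 and its partial r 0.0036. The number of all genes lower lay between 7523 and 8934 over the same alternatives. With Xist and Y covariates the mouse number called 0 of the 10 genes and 2291 genes in all, against 8 and 4362, and it called between 6 and 9 of the 10 under the other 4. The library number called 0.267% of genes, but 0.608% without a filter, 0 with limma and 0.141% without the 10% of libraries with the lowest totals, and 0 of the 10 genes in each, and the cause was not tested. Inside the libraries with Y chromosome counts the phosphatase to kinase ratio had r = -0.197 and the Dbt to Bckdha ratio 0.1195. Slope differences called 4 genes (macrophage) and 6 (thermogenic) under each alternative run. The median pair r of 0.811 became 0.809 with the deposited VST values. No paired analysis was possible because all libraries form 1 group and each mouse gave 1 library. Depth limited little here, since all 10 genes passed the filter, and the tissue was read in bulk. Alternatives that used both scores as covariates, left out the top 10% of muscle and of liver markers, or fitted the thermogenic slopes were chosen after seeing the data.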

Other observations

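Single animals stood out in ways that the pairwise values do not show, and they are given as values. Mouse DO349 had the highest Ppm1k (73.2 CPM) and Aldh6a1 (1360 CPM) of all libraries while its Mccc1 lay at 91.4 CPM, below the median of 139.7. Mouse DO237 had the highest Bckdha (475.7 CPM) and Bckdk (132.8 CPM) with an oxidative phosphorylation score of 3.16, and its Bcat2 was 72.6 CPM, close to the median of 71.7. Mouse DO408 had the highest Bcat2 (266.8 CPM) with a Ppm1k of 25.98 CPM. Mouse DO283, the library with the lowest total, had a Bckdk of 113.3 CPM but a Dbt of 43.98 and a Bckdhb of 51.9 CPM, both in the low part of their ranges.

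The low ends of the 10 genes fell together more than the single values show. In 7 libraries all 10 genes lay in the lowest 10% of their own values and in 3 libraries all 10 lay in the highest 10% (46 libraries each), while 75.2% of libraries had no gene in the lowest 10%. Among the former, DO316 and DO398 had adipocyte scores of -1.873 and -2.337 and macrophage scores of 1.525 and 2.273. Among the latter, DO140 and DO233 had adipocyte scores of 0.5857 and 0.9911 and macrophage scores of -1.401 and -1.533. These counts are a description and were not tested, nor was the part that tissue make-up plays in them.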
